A study of Mus musculus with 6 samples.

Results

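The small leucine-rich proteoglycans are a family of secreted matrix proteins, and 7 of their genes were followed here: Dcn (decorin), Bgn (biglycan), Fmod (fibromodulin), Lum (lumican), Prelp, Omd (osteomodulin) and Ogn (osteoglycin). They were chosen by gene symbol, with earlier results of these data known, and all 7 have a row among the 10189 genes of the table. RNA-seq libraries had been made from the total RNA of cultured primary chondrocytes, the cells of cartilage. The miR-34a KO group (genotype MiR-34a -/-, a global deletion bred from heterozygous mice) and the wild-type group had 3 libraries each, from C57BL/6 mice aged 5 weeks. The labels give the model nomenclature Mir34atm1.2 Mrl for both genotypes. Cartilage of hips and knees was pooled, digested and grown in medium with 10% serum, without treatment. Whether each sample of a genotype is its own animal or culture is not stated, and the p-values therefore describe the spread between these libraries, which may be technical.

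The proteins of the family have a core of leucine-rich repeats, and several of them bind collagen fibrils and influence how thick the fibrils grow. In cartilage, proteins of the family coat collagen II fibrils and link them to other matrix molecules. Decorin and biglycan, the class I proteins, carry chondroitin or dermatan sulfate chains and bind the growth factor TGF-beta. Fibromodulin, lumican, osteomodulin and PRELP belong to class II, several of whose proteins carry keratan sulfate and sulfated tyrosines, and osteoglycin belongs to class III.

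The deleted microRNA acts on messenger RNAs that pair with its seed, bases 2 to 8 from the 5′ end. The mature strand is shown with the seed in capitals, as RefSeq gives it (GRCm38.p6, chr4:150068473-150068494, plus strand), because its complement was searched in the family's transcripts.
mmu-miR-34a-5p: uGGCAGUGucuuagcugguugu

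The reverse complement of the seed, CACTGCC, was searched on the transcript strand in the longest annotated 3′ UTR of each gene. It occurred in 17.9% of 9343 UTRs. Of the 7 genes, Bgn was the one that held it, with 2 matches in a UTR of 1137 bases. Both are shown with the match in capitals, at bases 93 to 99 and 295 to 301 of that UTR (GENCODE M21, chromosome X, plus strand).
Bgn first match: ccaatattaactCACTGCCccaccacagct
Bgn second match: atggatagagcaCACTGCCaccgccattgt
The UTRs of Fmod (1652 bases), Lum (652), Omd (435), Dcn (488), Ogn (1518) and Prelp (2302) held no match to bases 2 to 8, nor to bases 2 to 7. A match of letters is a description of the window searched and not a measured site.

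The values are TMM-normalized CPM, read counts scaled by the authors to an effective library size. Each library held 989217 to 5266617 recovered reads, and 947081 to 1772185 without Rn45s, Lars2 and Mir6236. Rn45s, a ribosomal RNA precursor, took 59.1% of the reads of wild type 1, against 2.98% to 11.4% of those of the other 5 libraries. The deleted gene, Mir34a, has no row, and the labels were not checked by it. Of 18 chondrocyte markers 15 have a row (not Matn1, Cnmd or Snorc), and each of the 15 was above 0 in every library. Their score, the mean of centred log2 values, was 0.89, 0.09 and 0.04 in KO 1, KO 2 and KO 3, against −0.18, −0.46 and −0.37 in wild type 1, 2 and 3. Of the 15, 13 were higher and 2 lower in KO by their log2 means. Their summed CPM overlapped between genotypes (KO libraries 3864.2 to 7015.1, wild-type libraries 2539.8 to 3880.0).

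The sources used here do not give the strand setting of the counting. Snx22 shares 825 exon bases with Ppib on the opposite strand and had 28.0 to 40.1 times the CPM of Ppib in KO libraries and 39.65 to 63.46 times in wild-type libraries. Tsix, which lies antisense to Xist, had 8.12 to 12.8 times its CPM in KO libraries and 12.02 to 16.5 times in wild-type libraries. Which strand the values count is therefore uncertain for all genes. Fmod, Lum, Dcn, Bgn, Omd and Ogn share no exon base with an annotated gene on the opposite strand, and Prelp shares 350 with Gm15851. Omd and Ogn lie within the span of Cenpp, which runs on the opposite strand.

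The comparison asked which of these genes differ in chondrocytes without miR-34a. All 7 had a higher mean in KO on the log2 scale, as did 51.4% of all genes, but without KO 1 the values of Bgn, Omd and Ogn turned negative. Their median log2 fold change was 0.50, against 0.02 over all genes. Fmod and Lum differed most and were the 2 genes whose KO libraries all lay above all wild-type libraries. That separation occurred in 8.82% of all genes. None of the 7 passed the limma test at an adjusted p below 0.05, where 0% of genes were called higher and 0.00981% lower. The same 2 genes had an unadjusted p below 0.05, while 4.64% of all genes passed this threshold and were higher and 6.40% passed it and were lower. In the quasi-likelihood test of edgeR on recovered reads 0% of genes were called higher and 0.0196% lower, and again none of the 7. DESeq2 called both Fmod and Lum, where 0.666% of 4056 genes were called higher.

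**Figure D1:**
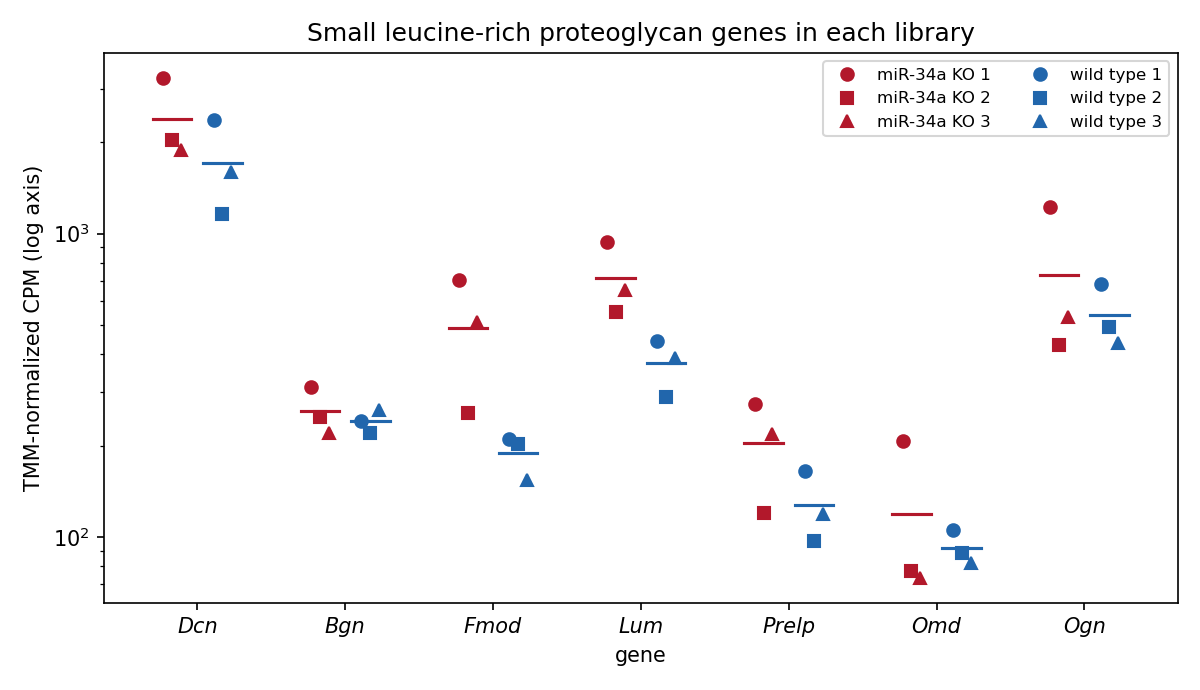
TMM-normalized CPM (log axis) of the 7 genes in each library, miR-34a KO in red and wild type in blue, with a bar at the mean of 3 libraries. KO 1 was the highest of the 6 libraries for all 7 genes, and the genotypes do not overlap for Fmod and Lum.

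Fmod encodes fibromodulin, which binds collagen fibrils at an early stage of their assembly. It had 704, 255 and 509.6 CPM in KO libraries 1, 2 and 3, against 210.5, 202 and 154 CPM in wild type 1, 2 and 3. KO 2 lay nearest to the wild-type libraries and KO 1 farthest from them, without overlap. The means were 489.5 ± 225 CPM in KO and 189 ± 30.3 CPM in wild type (SD, n = 3 each). On the log2 scale Fmod differed by 1.27 (SE 0.34, limma adjusted p = 0.281), with a 95% interval of 0.51 to 2.03. DESeq2 gave 1.39 with an adjusted p of 0.00600. Without KO 2, limma gave 1.68 with an adjusted p of 0.0257, and called 0.0687% of all genes higher. Without KO 1 the value was 0.94. With any 1 library other than KO 2 left out, the limma adjusted p was 0.366 to 0.599. Without wild type 1 and KO 2 together, the limma adjusted p was 0.125.

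Lum encodes lumican, which competes with fibromodulin for a shared region of collagen. It had 937, 550.2 and 650.2 CPM in KO libraries 1, 2 and 3, against 443, 289 and 388 CPM in wild type 1, 2 and 3. KO 1 was the highest library and wild type 2 the lowest, and the genotypes did not overlap. The means were 713 ± 201 CPM in KO and 373 ± 78.2 CPM in wild type (SD, n = 3 each). Lum differed by 0.92 on the log2 scale (SE 0.25, limma adjusted p = 0.281), with a 95% interval of 0.36 to 1.48. DESeq2 gave 0.95 with an adjusted p of 0.0203.

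Prelp encodes a collagen-binding protein that can also bind heparan sulfate in basement membranes. It had 275, 120.0 and 218 CPM in KO libraries 1, 2 and 3, against 165, 96.8 and 119 CPM in wild type 1, 2 and 3. KO 1 and KO 3 lay above every wild-type library, while KO 2 lay among them. Prelp differed by 0.64 on the log2 scale (SE 0.32, limma adjusted p = 0.493), with a 95% interval of −0.09 to 1.36. It was 0.38 without KO 1 and 0.98 without KO 2.

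Dcn encodes decorin, the most studied regulator of collagen fibril diameter. It had 3259, 2028 and 1884 CPM in KO libraries 1, 2 and 3, against 2375, 1161 and 1591 CPM in wild type 1, 2 and 3. Wild type 1 exceeded KO 2 and KO 3, so that the genotypes overlapped. Limma put the log2 fold change of Dcn at 0.50 (SE 0.32, limma adjusted p = 0.568), with a 95% interval of −0.21 to 1.22. It was 0.26 without KO 1, 0.25 without wild type 2 and 0.77 without wild type 1.

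Bgn encodes biglycan, the closest relative of decorin. It had 311, 248 and 221 CPM in KO libraries 1, 2 and 3, against 241, 220.2 and 262 CPM in wild type 1, 2 and 3. The libraries of both genotypes were interleaved. Bgn differed by 0.10 on the log2 scale (SE 0.19, limma adjusted p = 0.863), with a 95% interval of −0.33 to 0.53, and by −0.04 without KO 1, 0.21 without KO 3, 0.03 without wild type 2 and 0.16 without wild type 3. Bgn, the gene with the seed matches shown above, thus had the fold change nearest to 0 of the 7 and the narrowest interval. That interval includes differences of either sign, so an unchanged level is not shown.

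Omd encodes osteomodulin, a keratan sulfate proteoglycan of mineralized tissue. It had 207, 76.9 and 73.4 CPM in KO libraries 1, 2 and 3, against 106, 88.4 and 82.1 CPM in wild type 1, 2 and 3. KO 1 was the highest library, and the other KO libraries were below all wild-type libraries. For Omd the log2 fold change came to 0.20 (SE 0.37, limma adjusted p = 0.854), with a 95% interval of −0.63 to 1.04. It was −0.28 without KO 1, 0.43 without KO 2, 0.46 without KO 3, 0.31 without wild type 1 and 0.13 without wild type 3.

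Ogn encodes osteoglycin, also called mimecan. It had 1224, 431 and 531 CPM in KO libraries 1, 2 and 3, against 682, 492 and 437 CPM in wild type 1, 2 and 3. As for Omd, KO 1 stood alone above the rest. For Ogn the log2 fold change came to 0.31 (SE 0.37, limma adjusted p = 0.757), with a 95% interval of −0.51 to 1.13. Without KO 1 it was −0.14, and it was 0.61 without KO 2, 0.50 without wild type 1 and 0.18 without wild type 3.

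**Figure D2:**
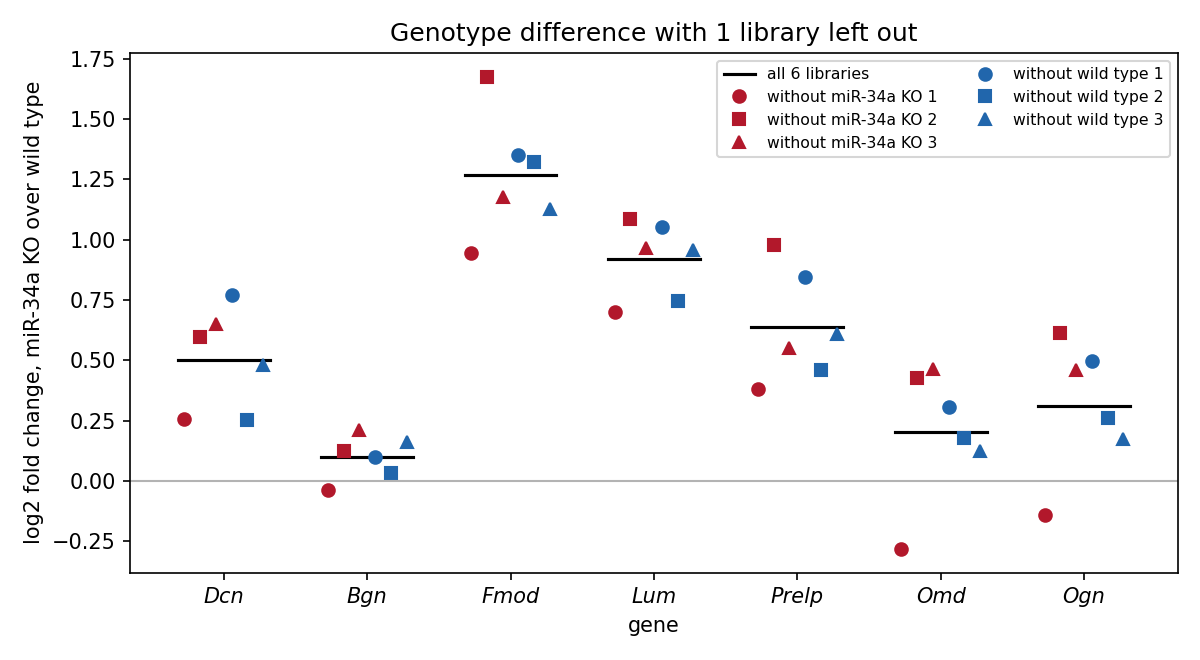
Log2 fold change (miR-34a KO over wild type, limma) of each gene with all 6 libraries (black bar) and with 1 library left out (red for a KO library, blue for a wild-type library). Without KO 1 the value was 0.94 for Fmod and 0.70 for Lum and lay below 0 for Bgn, Omd and Ogn.

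KO 1 was the library with the highest value for 7 of 7 genes, while it was the highest for 20.7% of all genes. The summed CPM of the 7 was 6917, 3710 and 4087 in KO 1, KO 2 and KO 3, against 4222, 2549 and 3034 in wild type 1, 2 and 3. Dcn made up 46.1% to 54.7% of that sum in KO and 45.55% to 56.3% in wild type. Fmod made up 10.2%, 6.88% and 12.5% of it in KO 1, KO 2 and KO 3, against 4.98%, 7.92% and 5.08% in wild type 1, 2 and 3, so the genotypes overlapped in this share. Lum made up 13.55% to 15.9% in KO, against 10.5% to 12.8% in wild type, without overlap. Counting error was at most 9.28% of the value for any of the 7 genes in any library, on 116 to 8539 reads. The coefficient of variation among KO libraries was 63.9% for Omd, 59.3% for Ogn, 45.9% for Fmod and 17.8% for Bgn.

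Markers of other cell types were detected, and the scores of several lists differed between the genotypes. KO 1, the highest library for all 7 genes, also had the highest chondrocyte score (0.89) and the lowest score of 12 macrophage and leukocyte markers (−1.92). The macrophage and leukocyte score was 0.96 in KO 2 and 0.03 in KO 3, against −0.01 to 0.56 in wild type, and the summed CPM of these markers was 1011 to 14899 in KO, against 5121 to 6064 in wild type. The score of 9 of 10 fibroblast and dedifferentiation markers with a row was −0.31 to −0.17 in KO, against 0.09 to 0.35 in wild type. By their log2 means 5 of the 9 were lower and 4 higher. Their summed CPM overlapped between genotypes (KO libraries 6939.1 to 10366, wild-type libraries 9136.9 to 10837). For 6 of 7 mural markers the score was −0.92 to −0.08 in KO, against 0.47 to 0.59 in wild type. Of the 6, 5 were lower by their log2 means, while Cspg4 was higher (25.5 to 58.1 CPM in KO, against 15.2 to 20.1 CPM in wild type). The score of 7 of 8 osteoblast markers was 0.73 to 1.00 in KO, against −1.16 to −0.50 in wild type. All 7 were higher by their log2 means. Bglap and Bglap2 were at 0 in every wild-type library (4.89 to 12.2 CPM in KO), so this score depends on the pseudocount. Every gene of the table reaches 7.35 CPM in at least 2 libraries, which Bglap and Bglap2 did through KO libraries alone. Their direction therefore followed from having a row and is no support for a difference. The summed CPM of the 7 overlapped between genotypes (KO libraries 6719.7 to 19947, wild-type libraries 5343.5 to 7381.9). The tendon markers Tnmd and Kera have no row, and the 3 of 6 tendon markers with a row had overlapping scores. Of 5 neutrophil markers, S100a8 and S100a9 have a row and were at 0 in every KO library, against a sum of 53.9 to 72.2 CPM in wild type. Both reached the 7.35 CPM through wild-type libraries alone, so their direction likewise followed from having a row. Of 5 endothelial markers, Pecam1 and Cdh5 have a row and were at 0 in KO 1 and KO 3. In KO 2 their summed CPM was 43.6, above that of every wild-type library, so the genotypes overlapped. The part of these cell types in the differences was not tested. In bulk RNA, fewer cells of a type and less RNA per cell cannot be told apart.

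A ratio between genes of 1 library does not depend on how that library was scaled, so 6 pairs were compared with a two-sided exact permutation test. With 3 libraries against 3 the smallest p it can give is 0.1, so no pair could pass 0.05. The ratio of Lum to Dcn was 0.288, 0.271 and 0.345 in KO 1, KO 2 and KO 3, against 0.186, 0.249 and 0.244 in wild type 1, 2 and 3. All KO libraries were above all wild-type libraries, with a difference of 0.42 on the log2 scale (exact permutation p = 0.1, 0.3 adjusted over 6 pairs). The ratio of Prelp to Fmod was 0.390, 0.470 and 0.427 in KO, against 0.785, 0.479 and 0.772 in wild type. Here all KO libraries were below, though KO 2 and wild type 2 lay close together, with a difference of −0.63 (exact permutation p = 0.1, 0.3 adjusted).

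The other 4 pairs overlapped between genotypes. Fmod over Dcn differed by 0.76 (exact permutation p = 0.2), Fmod over Lum by 0.35 (exact permutation p = 0.3) and Bgn over Dcn by −0.40 (exact permutation p = 0.3), each with an adjusted p of 0.36. With 1 library left out, Fmod over Lum lay between 0.17 (without wild type 3) and 0.59 (without KO 2), and was 0.21 without KO 3 and 0.58 without wild type 2. Bgn over Dcn was −0.22 without wild type 2 and −0.67 without wild type 1, where the genotypes no longer overlapped (exact permutation p = 0.1). Ogn over Omd differed by 0.11 (exact permutation p = 0.5, 0.5 adjusted), and its SD was 0.19 in KO and 0.15 in wild type on the log2 scale. The ratio of Ogn to Omd lay between 5.60 and 7.23 in KO and between 5.33 and 6.46 in wild type.

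**Figure D3:**
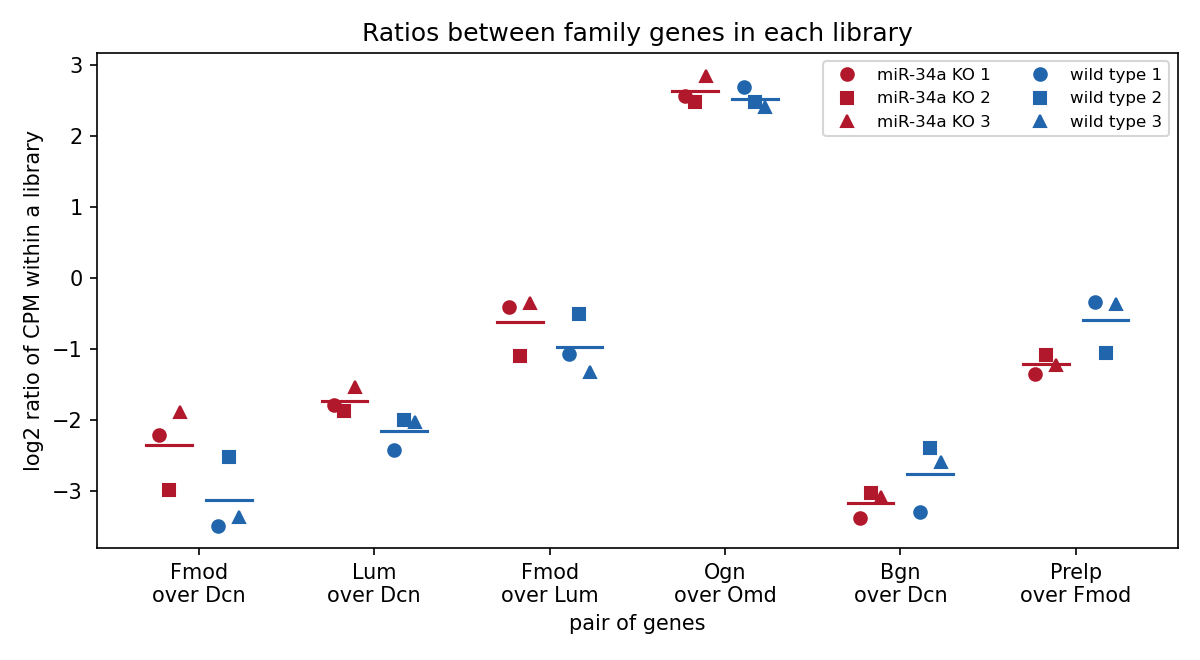
Log2 ratio of the CPM of 2 genes within each library, miR-34a KO in red and wild type in blue, with a bar at the mean of 3 libraries. The genotypes are separate for Lum over Dcn (higher in KO) and Prelp over Fmod (lower in KO), and overlap for the other 4 pairs.

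Levels of different genes were compared as CPM per kilobase of annotated exon. Dcn stood first with 409.5 ± 129 in KO and 293 ± 105 in wild type (SD, n = 3 each). In KO, Lum followed with 291 ± 82.1 and Ogn with 284 ± 168, and in wild type Ogn had 209 ± 49.95 and Lum 152 ± 31.9. The ranges of neighbours in this order overlapped in both genotypes, but within a library Dcn was above both Lum and Ogn in 6 of 6 libraries. Ogn was above Lum in 1 of 3 KO libraries and in 3 of 3 wild-type libraries. These orders within libraries were not tested. Fmod came next, with 148 ± 68.0 in KO and 57.1 ± 9.17 in wild type, and in wild type its highest library (63.7) was below the lowest of Lum (118). Prelp, Omd and Bgn were lowest and overlapped, with 56.5 ± 21.7, 52.9 ± 33.8 and 42.7 ± 7.61 in KO and 35.1 ± 9.66, 40.9 ± 5.40 and 39.5 ± 3.44 in wild type. The place of Bgn depends on its length, 6099 bases over all transcripts and 2666 for the longest. With the longest transcript Bgn had 97.6 in KO and 90.5 in wild type, above Prelp and Omd in both genotypes. By that length Fmod had 157 in KO and 60.5 in wild type, so Bgn lay above Fmod in wild type but not in KO.

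Most of these genes lie in clusters, and the clusters were followed with the other family genes that have a row. These were Aspn, Ecm2, Epyc, Chad, Chadl and Tsku, while Kera, Optc, Nyx, Podn, Podnl1 and Nepn have none. Of the 6, Chadl was higher and 5 were lower in KO by their log2 means, with a median of −0.77. Limma called none of them, and DESeq2 gave no adjusted p for Epyc, Chad, Chadl and Tsku and called neither Aspn nor Ecm2. Aspn and Ecm2 were the 2 genes of the 6 with every KO library below every wild-type library, which occurred in 9.57% of all genes.

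On chromosome 13 (mm10), Ecm2 (49504810 to 49532789), Aspn (49544443 to 49567565), Omd (49582462 to 49592822) and Ogn (49608046 to 49624501) follow each other on the plus strand. All of them lie within the span of Cenpp on the opposite strand, and Aspn shares 7 exon bases with it. Aspn, which encodes asporin, an inhibitor of TGF-beta, had 48.5, 44.1 and 27.5 CPM in KO libraries 1, 2 and 3, against 60.3, 62.5 and 113 CPM in wild type 1, 2 and 3 (log2 fold change −0.94, SE 0.32, limma adjusted p = 0.334). Ecm2, which encodes a matrix protein with leucine-rich repeats, had 44.7, 13.2 and 34.3 CPM in KO, against 49.6, 69.3 and 55.1 CPM in wild type (−1.06, SE 0.41, limma adjusted p = 0.398), and its value was −0.55 without KO 2. By their log2 means Aspn and Ecm2 were lower and Omd and Ogn higher, at neighbouring positions, except that Omd and Ogn were lower without KO 1. A difference between neighbours was not tested.

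**Figure D4:**
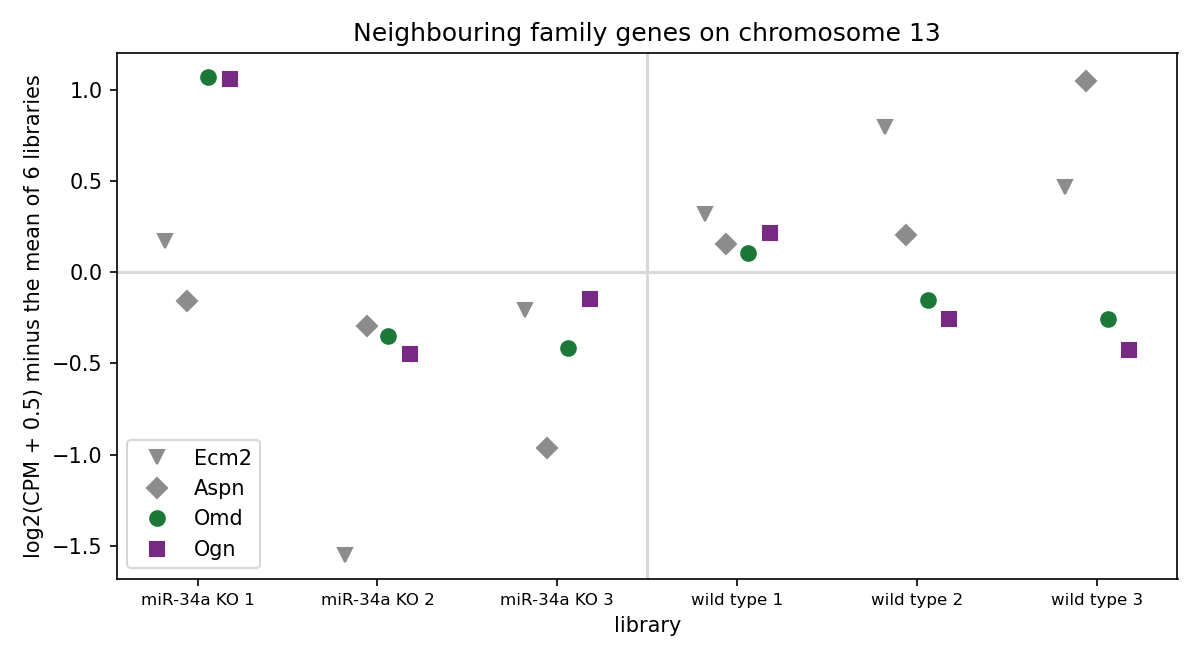
log2(CPM + 0.5) of the 4 neighbouring genes on chromosome 13 in each library, less each gene's mean over the 6 libraries. Omd and Ogn lie close together in every library and are highest in KO 1, while Aspn and Ecm2 lie lower in each KO library than in any wild-type library.

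On chromosome 10, Dcn (97479609 to 97518143), Lum (97565128 to 97572703) and Epyc (97644068 to 97682454) follow each other on the plus strand. Epyc encodes epiphycan, a cartilage member of class III, and had 14.5, 45.6 and 13.5 CPM in KO libraries 1, 2 and 3, against 27.0, 19.8 and 31.7 CPM in wild type 1, 2 and 3. It shares 1041 exon bases with Gm10754 on the opposite strand, and the fold change of −0.30 on the log2 scale (SE 0.47, limma adjusted p = 0.825) turned sign without KO 3 (0.0053) and with CPM without TMM (0.49). On chromosome 1, Prelp (133910304 to 133921414, minus strand) and Fmod (134037254 to 134048277, plus strand) both were higher by their log2 means. Bgn lies apart on chromosome X (73483602 to 73495933, plus strand).

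Chadl, which encodes a chondroadherin-like collagen-binding protein, had 19.8, 17.6 and 42.2 CPM in KO libraries 1, 2 and 3, against 6.28, 0 and 8.79 CPM in wild type 1, 2 and 3 (log2 fold change 2.99, SE 1.03, limma adjusted p = 0.335). It shares 1023 exon bases with L3mbtl2 on the opposite strand, and its value was 1.66 without wild type 2, the library at 0. A fitted fold change against a library at 0 depends on the pseudocount. Chad, which encodes chondroadherin, had 11.6 to 19.1 CPM in KO and 19.0 to 31.7 CPM in wild type (−0.60, SE 0.34, and 0.18 with CPM without TMM). Tsku, which encodes tsukushi, had 0 to 8.396 CPM in KO and 5.65 to 17.0 CPM in wild type (−2.05, SE 1.11, and −0.78 without KO 2, the library at 0). Chad and Tsku had limma adjusted p of 0.535 and 0.513.

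**Figure D5:**
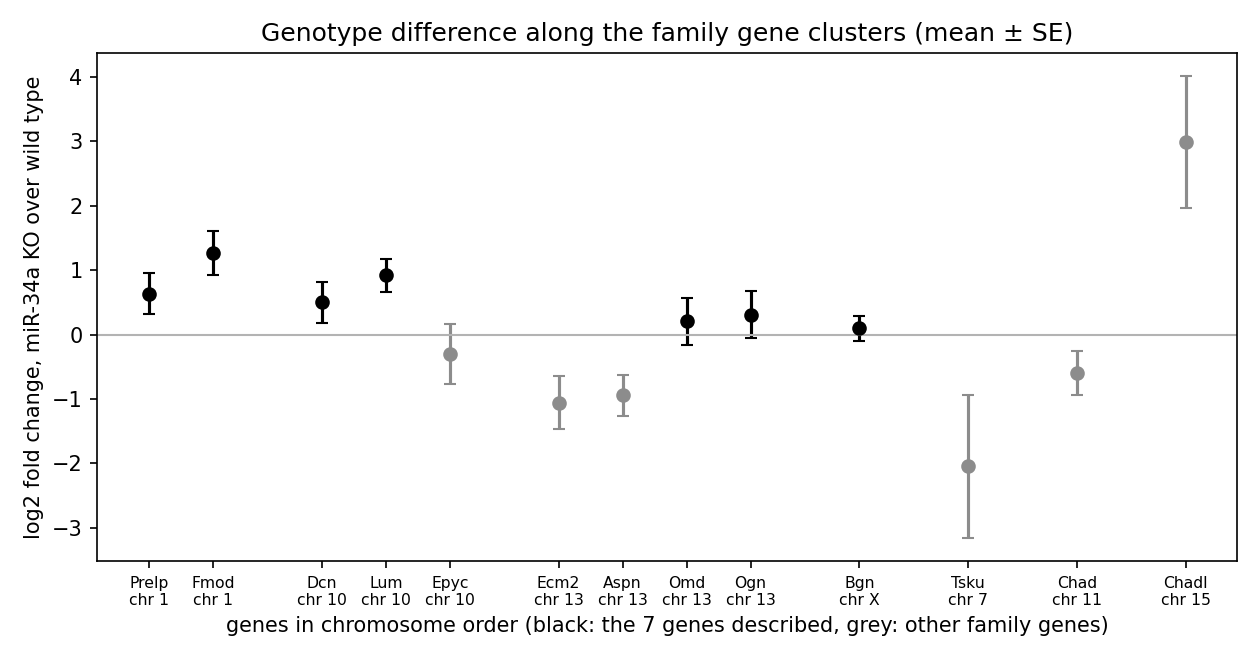
Log2 fold change (miR-34a KO over wild type) with its SE from limma for the 13 family genes with a row, in order along each chromosome. Black points are the 7 genes described and grey points the other 6; the grey points of chromosome 13 lie below 0 and the black ones above 0, where they lie below 0 without KO 1.

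Omd and Ogn were also the most alike in profile. Likeness was measured as the root mean square distance between log2 profiles over the 6 libraries, each centred on its mean, among 8696 genes of at least 10 CPM. Ogn was the nearest of all these genes to Omd (0.150), and Omd was the second nearest to Ogn. Nearest to Ogn was Ugdh (0.148) and after Omd came Papss2 (0.164). Ugdh encodes the enzyme that makes UDP-glucuronate, a precursor of glycosaminoglycan chains, and Papss2 the enzyme that makes the sulfate donor for them. Ugdh had 146, 58.8 and 85.6 CPM in KO libraries 1, 2 and 3, against 84.2, 60.2 and 59.8 CPM in wild type 1, 2 and 3. Papss2 had 152, 51.4 and 77.7 CPM in KO, against 76.6, 55.6 and 65.1 CPM in wild type, so KO 1 was the highest library here as well.

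Among the 7, Lum and Prelp (0.244) and Lum and Dcn (0.269) came next, while Fmod and Bgn were farthest apart (0.727). Nearest to Fmod was Cx3cl1 (0.0980), a chemokine gene, followed by Pcsk6 and Dnm1. Nearest to Lum were Serpine2 (0.0833), S100b (0.0883) and Pam (0.113), and to Prelp Cited2 (0.0549), Tubb2a and Rnf103. Nearest to Dcn were C1s1 (0.0863), Car5b and B3glct, to Bgn Ryk (0.0353), Emp1 and Rbsn, and to Omd after Ogn Dclre1a and Tbl2. With 6 libraries that share their scaling, these distances are descriptions.

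The promoters of Omd, Ogn and Fmod are shown because Omd and Ogn had the closest profiles and Fmod the largest difference. They run from 250 bases before to 50 bases after the RefSeq start (GRCm38.p6), and 5 of the 7 genes matched. The longest run of identical letters was sought for each pair of the 5 promoters. Omd and Ogn shared 11 bases, TTGAATTCCAC, which begin at −117 in Omd and −47 in Ogn and occur on either strand in 0.0152% of 32851 promoters. Fmod and Ogn shared 11 bases, TTATTCAGCAG, which begin at +7 in Fmod and −6 in Ogn and occur in 0.0304%. These runs are in capitals and were picked after they were seen. A longer run, of 12 bases rich in C and T, was shared by Bgn and Prelp and occurs in 0.3805%. Fmod and Prelp also shared 11 bases, which occur in 0.4779%. Each share is that of the given letters, not of any shared run of that length. The runs are descriptions of letters, not sites.
Omd, chr13:49582212-49582511, plus strand: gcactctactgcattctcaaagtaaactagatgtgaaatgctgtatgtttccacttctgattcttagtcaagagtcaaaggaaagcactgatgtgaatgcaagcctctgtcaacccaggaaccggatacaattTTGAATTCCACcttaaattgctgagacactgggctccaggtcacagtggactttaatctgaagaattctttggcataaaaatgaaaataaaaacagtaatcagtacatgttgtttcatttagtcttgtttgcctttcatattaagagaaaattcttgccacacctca
Ogn, chr13:49607765-49608064, plus strand: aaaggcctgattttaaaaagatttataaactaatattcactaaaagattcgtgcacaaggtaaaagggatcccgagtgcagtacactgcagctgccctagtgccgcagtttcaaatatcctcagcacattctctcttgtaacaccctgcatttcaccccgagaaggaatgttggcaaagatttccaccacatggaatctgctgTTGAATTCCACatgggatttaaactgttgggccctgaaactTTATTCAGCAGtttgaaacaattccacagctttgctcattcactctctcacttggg
Fmod, chr1:134037004-134037303, plus strand: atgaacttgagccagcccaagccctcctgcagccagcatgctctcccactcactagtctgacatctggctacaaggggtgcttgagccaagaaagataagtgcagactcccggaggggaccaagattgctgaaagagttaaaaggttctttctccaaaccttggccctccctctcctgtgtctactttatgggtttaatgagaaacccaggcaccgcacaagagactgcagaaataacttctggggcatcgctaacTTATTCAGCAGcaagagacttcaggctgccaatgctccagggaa

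The genes of the matrix and pathways around the family were counted from lists, with no call by limma at an adjusted p below 0.05 in any of them. Over all genes, 51.4% were higher by their log2 means, with a median log2 fold change of 0.02. Of 18 genes for collagens and matrix proteins bound by the family, 16 have a row, and 10 were higher and 6 lower by their log2 means (median 0.24). At an unadjusted p below 0.05, 2 were higher and 3 lower, beside 4.64% and 6.40% of all genes. Col11a2, a chain of the fibril-forming collagen XI of cartilage, had 126, 71.0 and 67.3 CPM in KO libraries 1, 2 and 3, against 32.04, 16.8 and 18.8 CPM in wild type 1, 2 and 3 (log2 fold change 1.94, SE 0.34, limma adjusted p = 0.176). Col3a1, a collagen of fibroblasts, had 1981, 1573 and 2277 CPM in KO, against 4063, 2785 and 4346 CPM in wild type (−0.93, SE 0.26, limma adjusted p = 0.282). DESeq2 called these 2 genes of the list, 1 higher and 1 lower, beside 0.666% and 2.00% of all genes it tested. Col1a1 (−0.54, SE 0.19), the main collagen of bone and dedifferentiated cells, and Comp (1.03, SE 0.41), a cartilage protein that links collagens, had limma adjusted p of 0.354 and 0.402.

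Of 24 growth factors and receptors that the family binds, 20 have a row, and 15 were higher and 5 lower by their log2 means (median 0.18). Tgfb2 had 80.7 to 106 CPM in KO and 59.7 to 70.4 CPM in wild type (0.51, SE 0.20, limma adjusted p = 0.400), and shares 124 exon bases with Gm29491 on the opposite strand. It was the only one of the 20 with an unadjusted limma p below 0.05, beside 4.64% of all genes higher and 6.40% lower. Tlr4, a receptor that biglycan and decorin can engage, had 0.60 (SE 0.28), Tgfbr1 −0.49 (SE 0.30) and Antxr1 0.45 (SE 0.29), and all 3 overlapped between genotypes.

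Of 14 proteases known to cut the family's proteins or related matrix, 12 have a row, and 3 were higher and 9 lower by their log2 means (median −0.29). At an unadjusted limma p below 0.05, 1 was higher and 3 lower, beside 4.64% and 6.40% of all genes. Mmp3, stromelysin, had 544, 490.4 and 299.7 CPM in KO libraries 1, 2 and 3, against 1365, 609 and 987 CPM in wild type 1, 2 and 3 (−1.12, SE 0.33, limma adjusted p = 0.294), and DESeq2 called it lower (adjusted p = 0.0237), where 2.00% of genes were. Mmp8, the collagenase of neutrophils, had 3.05 to 5.51 CPM in KO and 15.1 to 22.3 CPM in wild type (−2.04, SE 0.50, limma adjusted p = 0.273). It reached 7.35 CPM, the level that every gene of the table has in at least 2 libraries, in wild type alone. Adamts1 (−0.67, SE 0.22) had no overlap either, and Mmp13 (0.72, SE 0.28), the collagenase of hypertrophic cartilage, overlapped between genotypes. Their limma adjusted p were 0.323 and 0.394.

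Of 22 enzymes that build chondroitin and dermatan sulfate, 15 have a row, and 14 were higher and 1 lower by their log2 means (median 0.29). At an unadjusted limma p below 0.05, 2 were higher and 0 lower, beside 4.64% and 6.40% of all genes. Chpf, a subunit of the chondroitin polymerase, had 32.8, 12.2 and 20.8 CPM in KO libraries 1, 2 and 3, against 8.80, 6.86 and 8.79 CPM in wild type 1, 2 and 3 (1.28, SE 0.44, limma adjusted p = 0.341). Chpf2 (0.62, SE 0.25, limma adjusted p = 0.418) was likewise without overlap, and it shares 2466 exon bases with Smarcd3 on the opposite strand. Csgalnact2 (0.55, SE 0.27) and B4galt7 (0.83, SE 0.53, with 110 exon bases shared with Gm15911 on the opposite strand) overlapped. Of 7 enzymes of keratan sulfate, 3 have a row, Chst2 (1.34, SE 1.23), B3gnt2 (0.07, SE 0.28) and B4galt1 (0.04, SE 0.24), and all 3 overlapped between genotypes. The tyrosine sulfotransferase Tpst1 had 23.9 to 41.6 CPM in KO and 12.95 to 22.0 CPM in wild type (0.68, SE 0.34, limma adjusted p = 0.493), and Tpst2 had −0.16 (SE 0.34).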

How the data were processed

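The authors deposited 1 table of TMM-normalized CPM, a signal per gene and library, in which every gene reaches 7.35 CPM in at least 2 libraries; the sources used here give no filter rule. Per the submitters' processing notes, the tools include HISAT2 2.1.0, StringTie 1.3.5, cutadapt 1.18, edgeR and bcl2fastq and the build is mm10, with no roles stated. Per the labels' protocols, the library kit was TruSeq Stranded Total RNA, and both ends were read for 75 cycles. Dividing each library by its smallest step gave whole reads for 100% of values (tolerance 0.001 reads). They total 989217 to 5266617 per library, and the counting errors given cover counting only, while 95% intervals of fold changes come from the spread between libraries. Columns were matched by title; 1 name has the letter O where the title has a zero. GENCODE M21 matched 96.3% of symbols.

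The 3 KO and 3 wild-type libraries entered limma 3.58.1 (R 4.3.3) as log2(CPM + 0.5) with a mean-variance trend; two-sided p-values were adjusted by Benjamini-Hochberg over 10189 genes. Fold changes are differences of mean log2(CPM + 0.5), and for low genes their size depends on the pseudocount (Chadl had 3.79 with 0.1 and 2.24 with 2). Alternatives were edgeR 4.0.16, DESeq2 1.42.0 and limma-voom on recovered reads, and other settings listed in the closing section. The procedure was tested on simulated data. The planned test assumed CPM, and the same test was used on the TMM-normalized values. No 2 libraries of a genotype agreed within sampling noise (chi-square per degree of freedom 10.5 to 219).

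The members and the gene lists were chosen with earlier results of these data known. Named genes were the 7 members, other family genes with a row, up to 4 genes of smallest p per list, and 3 nearest profiles per member.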

Additional observations from a re-analysis of the deposited data

How the results depend on the processing

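The differences of Fmod, Lum, Dcn and Prelp kept their sign in every alternative run. Fmod ranged from 0.94 to 2.07, Lum from 0.70 to 1.73, Dcn from 0.25 to 1.31 and Prelp from 0.38 to 1.44. The upper ends come from CPM without TMM, where the median of all genes moved to 0.80. Relative to that shift Chad (0.18) and Epyc (0.49), which turned sign there, lay below the median. The pseudocount, the filter, the other scalings and the limma variants changed no call of the 7.

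DESeq2 called 2 of the 7 (Fmod 1.39 and Lum 0.95) and 3 genes of the pathway lists, where limma called 0. Over the 4056 genes it tested, DESeq2 called 0.666% higher and 2.00% lower. With 1 library left out, 0 to 1 of the 7 were called by limma. The 1 call was Fmod without KO 2, where 0.0687% of all genes were called higher. Of the 7, 2 to 4 had an unadjusted limma p below 0.05 (4 without wild type 1). That count was 4 without wild type 1 and KO 2 together, against 2. For the other family genes it was 1 to 4 with 1 library left out (1 without KO 3 or wild type 3), and 1 each with CPM without TMM and without genes with opposite-strand exons, against 3. For the pathway lists it was 6 to 14 with 1 library left out (6 without wild type 2) and 3 with CPM without TMM, against 12. The share of all genes with an unadjusted p below 0.05 was not counted in these altered settings. Changes in these counts can therefore not be set apart from changes over all genes.

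With 1 library left out, Fmod lay between 0.94 and 1.68, Lum between 0.70 and 1.09, Omd between −0.28 and 0.46, Bgn between −0.0385 and 0.21, and Ogn between −0.14 and 0.61. Omd, Bgn and Ogn turned negative without KO 1. Epyc lay between −0.856 and 0.0053, positive without KO 3. The log2 ratio of Ogn to Omd lay between −0.0012 and 0.19, negative without KO 3. With the longest transcript as length, Bgn ranked 5, Omd 6 and Prelp 7 by the mean of the 6 libraries. The causes of these changes were not tested.

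With a replicate block, Fmod had an adjusted p of 0.323 and Lum 0.311, and no call changed. Replicates with the same number did not deviate together (r of 0.02, 0.07 and −0.06). With 3 libraries a genotype this cannot show whether the numbers pair the libraries, and the labels do not say.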
